A study of Homo sapiens with 4 samples.

Results

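The genes examined here make, export and burn citrate. They are CS, ACO1, IDH1, IDH2, IDH3A, OGDH, FH, MDH2 and SLC25A1, taken by name from a list of 9, with every probe set that the platform annotation assigns to them and to no other gene. Of the 9 genes, 8 had such probe sets, 17 in all, among the 19583 genes of the table, and FH was not analysed here. RNA came from LNCaP, a human prostate cancer cell line that responds to androgen, into which a lentivirus had brought the transcription factor ERG joined to red fluorescent protein (2 arrays labelled LNCaP-ERG) or the fluorescent protein alone (2 arrays labelled LNCaP-vector). All 4 arrays hold cells that went through lentiviral transduction and an overnight culture in regular medium before RNA was taken, and no untransduced cells were among them. The comparison asks whether transcripts for citrate handling differed in the cells given ERG.

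In the tricarboxylic acid cycle, citrate synthase joins acetyl-CoA to oxaloacetate, aconitase turns the citrate into isocitrate, and a chain of dehydrogenases oxidizes it back to oxaloacetate. Normal prostate epithelium is known for secreting citrate into the seminal fluid rather than oxidizing it, and prostate cancer cells are known for oxidizing it again. Citrate that leaves the mitochondrion through the carrier SLC25A1 can be split by ATP-citrate lyase for fatty acid and sterol synthesis.

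None of the 8 measured genes passed the test between LNCaP-ERG and LNCaP-vector arrays, and all 8 differed by less than 1.2-fold. The lowest log2 fold changes, here always LNCaP-ERG over LNCaP-vector, were those of IDH3A (-0.22) and IDH1 (-0.19), and the highest was that of IDH2 (0.11). Adjusted p-values from limma ran from 0.54 to 0.93, where the threshold was 0.05 after Benjamini-Hochberg adjustment over all 19583 genes, each represented by its brightest probe set. At an unadjusted p under 0.05 limma also gave 0 of the 8. Over all genes 0.0102% passed the adjusted threshold (2 genes), and at an unadjusted p under 0.05 the shares were 5.61% higher and 4.11% lower. The log2 fold changes of all 8 genes lay between -0.24 and 0.28, the 5th and 95th percentiles of all genes.

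A few facts of the arrays bear on these values. Whether same-group arrays stem from different cultures is not stated in the sources used here, so the error behind p-values and intervals is that between the arrays at hand and may be technical. The SD of the log2 differences over genes was 0.19 between arrays of 1 group, and 0.19 to 0.24 between arrays of different groups. As a background level the 95th percentile of 31 measured genes of other organs is used below, a log2 intensity of 6.23, where their median was 3.35. Of 11 luminal prostate markers 9 were measured, 8 of them above that level in both groups, while none of the measured basal, leukocyte, neuroendocrine and endothelial markers was. Log2 fold changes of the 9 luminal markers, 6 above 0 and 3 below, had a median of 0.025. They ran from -0.29 (KLK2, limma's adjusted p = 0.43) to 0.56 (ACP3, adjusted p = 0.26), and TMPRSS2 had -0.20 and KLK3 -0.13. Of the neuroendocrine markers, SYP had -0.45 (adjusted p = 0.47), CHGA 0.16 and INSM1 a value near 0, all below the background level. The 3 endothelial markers, all below that level, had log2 fold changes of 0.02 (CDH5), 0.30 (VWF) and 0.32 (PECAM1), with adjusted p-values of 0.49 or more and a summed intensity of 87.4 to 94.4 in the LNCaP-ERG arrays and 71.6 to 77.8 in the LNCaP-vector arrays. Among 8 fibroblast and smooth muscle markers, 4 had a value above 0 and 4 below, with a median log2 fold change of -0.018. VIM (0.55, adjusted p = 0.24) and COL1A1 (0.38, adjusted p = 0.35) were the 2 above the background level, while the other 6 were below it, COL1A2 (-0.21) and DES (-0.15) with both LNCaP-ERG arrays under both vector arrays. The summed intensity of that list was 1033 to 1070 in the LNCaP-ERG arrays and 768 to 807 in the LNCaP-vector arrays. Their part in the values below was not tested, and in bulk RNA a different mix of cells and a different RNA content per cell cannot be told apart. The 4 probe sets of ERG itself were all below the background level on every array (log2 fold changes between -0.24 and 0.12). None had both LNCaP-ERG arrays above both vector arrays, so they show no rise of ERG RNA and do not check the labels. Whether they read the introduced ERG sequence was not tested.

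**Figure D1:**
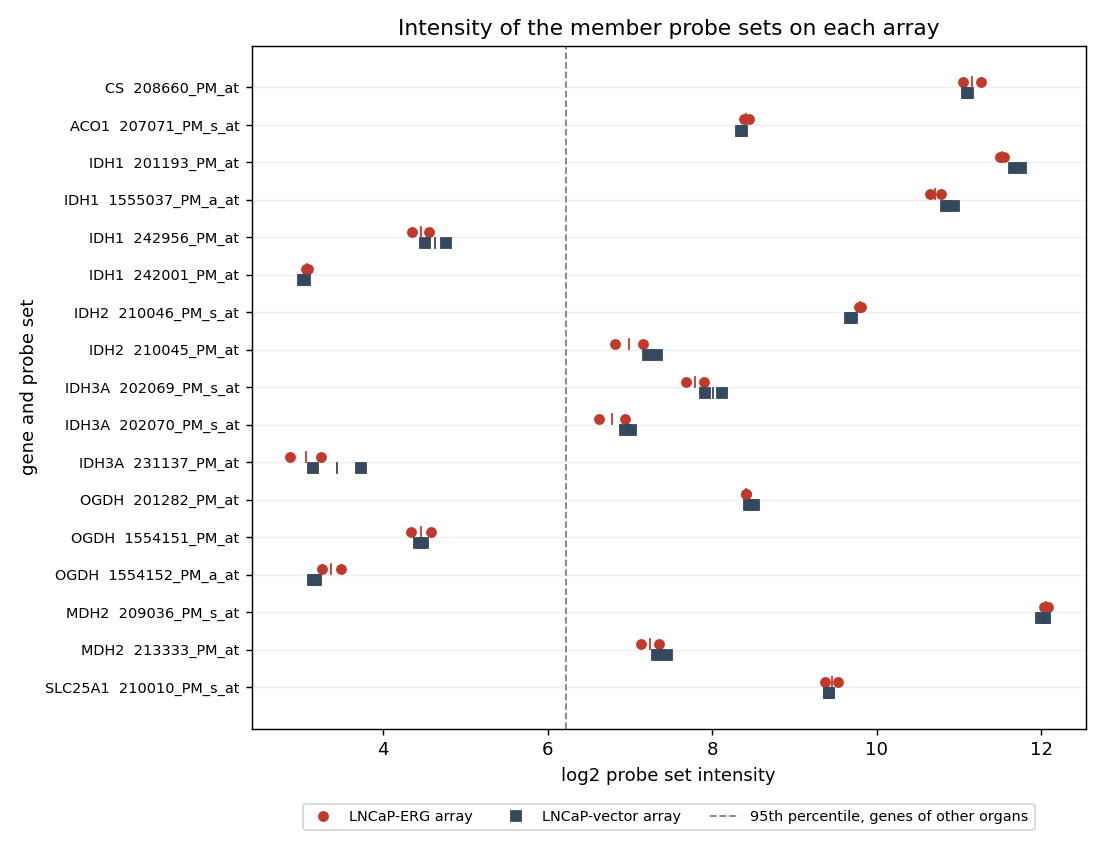
Log2 intensity (x axis) of the 17 probe sets of the 8 measured genes (y axis, gene and probe set). Red circles are the 2 LNCaP-ERG arrays, dark squares the 2 LNCaP-vector arrays, short lines mark the mean of each group, and a dashed line marks the background level of 6.23; 12 probe sets lie to its right on every array.

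Citrate synthase, encoded by CS, makes the citrate. Its only probe set, 208660_PM_at, had log2 intensities of 11.26 and 11.04 in the LNCaP-ERG arrays, against 11.09 and 11.10 in the LNCaP-vector arrays. The LNCaP-ERG arrays lay on both sides of the vector arrays. The means were 11.15 ± 0.16 and 11.10 ± 0.01 (SD, n = 2 in each group), and the log2 fold change was 0.06 (95% confidence interval -0.20 to 0.31, standard error 0.10, limma's adjusted p = 0.90). Without the first LNCaP-ERG array the sign turned, to -0.053.

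ACO1 encodes the cytosolic aconitase, which also serves, without its iron-sulfur cluster, as an iron regulatory protein that binds RNA. Its only probe set, 207071_PM_s_at, had 8.38 and 8.44 in the LNCaP-ERG arrays and 8.35 and 8.36 in the LNCaP-vector arrays. Both LNCaP-ERG values were above both vector values, by a log2 fold change of 0.06 (95% confidence interval -0.14 to 0.25, standard error 0.08, limma's adjusted p = 0.86).

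The isocitrate dehydrogenases were the members with the lowest and the highest values. IDH1 makes 2-oxoglutarate and NADPH in the cytosol and peroxisomes, IDH2 does so in the mitochondrion, and IDH3A is the catalytic subunit of the NAD-dependent enzyme of the cycle. At the brightest IDH1 probe set, 201193_PM_at, the log2 intensities were 11.50 and 11.54 in the LNCaP-ERG arrays, against 11.66 and 11.76 in the LNCaP-vector arrays. The groups did not overlap, and the log2 fold change was -0.19 (95% confidence interval -0.39 to 0.02, standard error 0.08, limma's adjusted p = 0.54). The second bright probe set, 1555037_PM_a_at, had 10.64 and 10.78 in the LNCaP-ERG arrays and 10.84 and 10.94 in the LNCaP-vector arrays, again without overlap, and a log2 fold change of -0.18. The remaining IDH1 probe sets, 242956_PM_at (-0.18) and 242001_PM_at (0.04), were below the background level on all 4 arrays. With single arrays left out the IDH1 value at its brightest probe set stayed negative, at -0.24 to -0.14.

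The 2 probe sets of IDH2 disagreed in direction, each without overlap between the groups. At the brighter, 210046_PM_s_at, the log2 intensities were 9.78 and 9.81 in the LNCaP-ERG arrays and 9.68 and 9.70 in the LNCaP-vector arrays. The log2 fold change there was 0.11 (95% confidence interval -0.09 to 0.30, standard error 0.08, limma's adjusted p = 0.70). At the dimmer, 210045_PM_at, the log2 intensities were 6.82 and 7.16 in the LNCaP-ERG arrays, against 7.33 and 7.22 in the LNCaP-vector arrays. Its log2 fold change was -0.29 (standard error 0.14, limma's adjusted p = 0.62 over all named probe sets), and the mean of both probe sets had -0.092. The direction for IDH2 therefore depends on the probe set taken, and the opposite signs of IDH1 and IDH2 at their brightest probe sets hold for that choice alone. The difference between these genes was not tested.

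IDH3A had the lowest log2 fold change of the 8 genes. Its brightest probe set, 202069_PM_s_at, had log2 intensities of 7.69 and 7.90 in the LNCaP-ERG arrays and 7.91 and 8.12 in the LNCaP-vector arrays. The groups did not overlap, but the upper LNCaP-ERG value and the lower vector value were nearly equal. The log2 fold change was -0.22 (95% confidence interval -0.52 to 0.08, standard error 0.12, limma's adjusted p = 0.60). The second bright probe set, 202070_PM_s_at, overlapped, with 6.63 and 6.94 in the LNCaP-ERG arrays, against 6.94 and 7.01 in the LNCaP-vector arrays (log2 fold change -0.19). The probe set 231137_PM_at was below the background level and had -0.38. All 3 probe sets were thus negative, none passed, and with single arrays left out the value at the brightest probe set was -0.33 to -0.12. Of the other subunits of the same enzyme, IDH3B was at 0.03 on that scale (adjusted p = 0.95) and IDH3G at 0.12 (adjusted p = 0.71).

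OGDH encodes the decarboxylating subunit of the 2-oxoglutarate dehydrogenase complex, which makes succinyl-CoA. At 201282_PM_at both LNCaP-ERG arrays had 8.41, while the LNCaP-vector arrays had 8.51 and 8.45. The groups did not overlap, at a log2 fold change of -0.07 (95% confidence interval -0.26 to 0.12, standard error 0.08, limma's adjusted p = 0.81). Below the background level, 1554152_PM_a_at had 0.21 without overlap and 1554151_PM_at had -4.5e-04, and the mean of the 3 probe sets had 0.045. Of the other subunits of the complex, DLST was at 0.09 (adjusted p = 0.76) and DLD at -0.01 (adjusted p = 0.99) on the same scale.

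MDH2 encodes the mitochondrial malate dehydrogenase, which regenerates oxaloacetate for citrate synthase. Its brightest probe set, 209036_PM_s_at, had 12.03 and 12.07 in the LNCaP-ERG arrays and 12.05 and 11.99 in the LNCaP-vector arrays. These overlapped, at a log2 fold change of 0.03 (95% confidence interval -0.16 to 0.23, standard error 0.08, limma's adjusted p = 0.93). The dimmer probe set, 213333_PM_at, had 7.13 and 7.35 in the LNCaP-ERG arrays, against 7.33 and 7.45 in the LNCaP-vector arrays, and a log2 fold change of -0.15. Its cytosolic counterpart MDH1, which takes part in the malate-aspartate shuttle, had 11.16 and 11.15 in the LNCaP-ERG arrays and 10.89 and 10.88 in the LNCaP-vector arrays. The MDH1 groups did not overlap, at a log2 fold change of 0.27 (95% confidence interval 0.08 to 0.46, standard error 0.07, limma's adjusted p = 0.39), which did not pass. The second MDH1 probe set, below the background level, had 0.28. The difference between MDH1 and MDH2 was not tested.

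SLC25A1, the carrier that exports citrate from the mitochondrion, had 9.53 and 9.37 at 210010_PM_s_at in the LNCaP-ERG arrays and 9.41 and 9.42 in the LNCaP-vector arrays. As with CS, the LNCaP-ERG values lay on both sides of the vector values. The log2 fold change was 0.04 (95% confidence interval -0.19 to 0.26, standard error 0.09, limma's adjusted p = 0.93), and without the first LNCaP-ERG array it was -0.045. ACLY, the ATP-citrate lyase that splits exported citrate, had 11.62 and 11.60 in the LNCaP-ERG arrays and 11.60 and 11.61 in the LNCaP-vector arrays at its brightest probe set (log2 fold change 8.0e-04, adjusted p = 1.0). Its dimmer probe sets, 210337_PM_s_at and 201127_PM_s_at, had 0.10 and 0.29, both without overlap and both short of the adjusted threshold (adjusted p = 0.78 and 0.56 over all named probe sets).

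**Figure D2:**
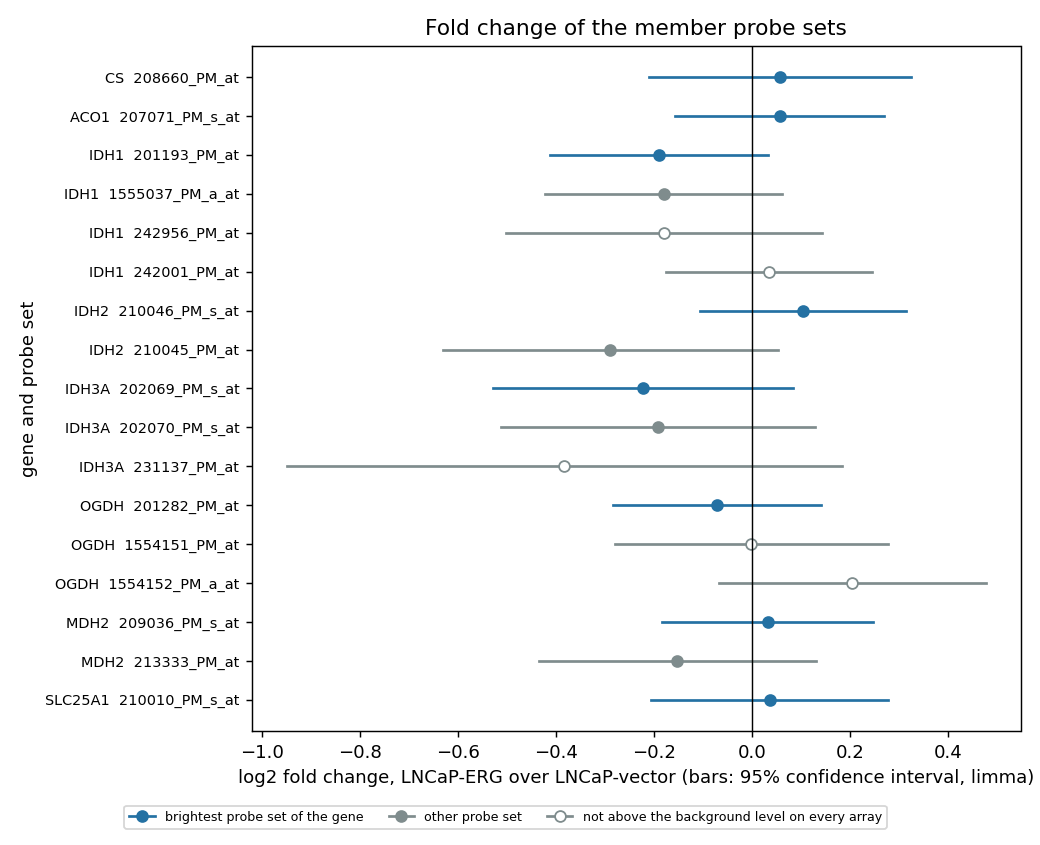
Log2 fold change, LNCaP-ERG over LNCaP-vector (x axis), of the 17 probe sets (y axis), with bars for the 95% confidence interval from limma over all named probe sets. Blue marks the brightest probe set of each gene and open circles those not above the background level on every array; all 17 intervals include 0, and those of IDH2 at 210046_PM_s_at and 210045_PM_at are centred on opposite sides of it.

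Tested as 17 separate probe sets among the 39464 with 1 annotated gene, none passed in either direction, with limma's adjusted p-values of 0.62 to 1.0, and 0 of 17 had an unadjusted p under 0.05. In this fit 0% of all named probe sets passed, and 3434 of them had an unadjusted p under 0.05. The median log2 fold change of the 17 was -0.071, beside -0.0014 over all named probe sets. Over the 8 genes the median was 0.035, beside 0.0078 over all genes, with 5 genes above 0 and 3 below. Both LNCaP-ERG arrays were above both vector arrays in 2 of the 8 genes (ACO1 and IDH2) and below both in 3 (IDH1, IDH3A and OGDH), where the shares over all genes were 21.7% and 19.1%. By probe sets these counts were 4 and 5 of 17, beside 18.9% and 20.1% of all named probe sets. The 95% confidence intervals of the 8 genes reached from -0.52 (IDH3A) to 0.31 (CS), or 0.696-fold to 1.24-fold. A p that misses the threshold does not show that a gene was unchanged within these limits.

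ERG belongs to the ETS family, whose members bind DNA at a GGAA core. The promoters of CS, IDH3A and MDH2 are shown because they were the members whose promoter held the longer ETS-type motif CCGGAA, searched on both strands over 250 bases before to 50 bases after the start in RefSeq's promoter table for GRCh38.p14. A promoter was in that table for 8 of the 9 listed genes (not OGDH), in 9 windows, of which 3 held the motif, and 17.2% of all 35116 promoters listed there did. The 250 bases before the start are printed, 5′ to 3′ on the gene's strand, with the motif on either strand in capitals.
CS, chr12:56300331-56300580, minus strand: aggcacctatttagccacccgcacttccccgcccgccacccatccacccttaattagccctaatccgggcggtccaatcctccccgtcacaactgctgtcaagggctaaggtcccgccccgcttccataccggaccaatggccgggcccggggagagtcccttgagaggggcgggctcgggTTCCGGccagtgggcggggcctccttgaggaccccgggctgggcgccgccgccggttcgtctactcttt
IDH3A, chr15:78149112-78149361, plus strand: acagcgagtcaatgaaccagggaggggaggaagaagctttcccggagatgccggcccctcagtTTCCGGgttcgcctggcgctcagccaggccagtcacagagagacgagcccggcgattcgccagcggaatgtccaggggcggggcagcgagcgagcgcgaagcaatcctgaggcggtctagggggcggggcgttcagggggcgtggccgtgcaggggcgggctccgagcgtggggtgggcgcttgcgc
MDH2, chr7:76047856-76048105, plus strand: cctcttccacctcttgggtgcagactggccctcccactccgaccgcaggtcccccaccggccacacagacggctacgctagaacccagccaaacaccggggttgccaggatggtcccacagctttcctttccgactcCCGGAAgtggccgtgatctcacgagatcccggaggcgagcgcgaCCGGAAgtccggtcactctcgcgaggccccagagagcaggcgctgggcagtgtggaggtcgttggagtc
The match began 69 bases before the start in CS, 187 bases before it in IDH3A, and 113 and 69 bases before it in MDH2, the member with 2 matches. The log2 fold changes of these 3 genes at their brightest probe sets were 0.06, -0.22 and 0.03, on both sides of 0. A match describes the letters of this window and does not show that a factor binds there.

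The rest of the pathway was described from 7 lists of 81 genes, 70 of them measured, including the 8 members. Over all genes limma called 0 of the 70 in either direction at the adjusted threshold. At an unadjusted p under 0.05 there were 2 higher and 7 lower, where 5.61% and 4.11% of all genes were, and the median log2 fold change was -0.016. The list of citrate synthesis and cycle enzymes, 19 of 22 measured, had a median of 0.025 with 11 above 0 and 8 below. It also holds ACO1, IDH1 and MDH1, whose enzymes lie outside the mitochondrion. Besides MDH1, which had the highest value of that list, none of its genes reached an unadjusted p under 0.05 by limma, and IDH3A had the lowest value.

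Around the cycle, the 14 genes of the export and carrier list had log2 fold changes between -0.35 and 0.30. SLC25A12, an aspartate-glutamate carrier of the malate-aspartate shuttle, had 6.65 and 6.78 in the LNCaP-ERG arrays, against 7.01 and 7.07 in the LNCaP-vector arrays (log2 fold change -0.32, adjusted p = 0.39). Its second probe set had -0.25, below the background level. SLC25A13, the other such carrier, had -0.25 (adjusted p = 0.53). At their brightest probe sets both genes were lower in both LNCaP-ERG arrays than in both vector arrays. Of the 14 genes, 4 were lower in this way and 2 higher, where 19.1% and 21.7% of all genes were. SLC25A21, an oxodicarboxylate carrier, had the lowest value of the list (-0.35, adjusted p = 0.35), and SLC13A5, the plasma membrane citrate importer, the highest (0.30, adjusted p = 0.50). Both were below the background level on all arrays, so the sizes of their differences are not exact. ACSS1, a mitochondrial acetyl-CoA synthetase that was also below it, had -0.29 with overlap, and the carriers SLC25A10 (0.03) and SLC25A11 (-0.02) lay near 0. The list had a median of -0.012, with 7 of its 14 genes on each side of 0.

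For the entry of pyruvate, 12 of 13 genes were measured, with a median log2 fold change of -0.0033. DLAT, the acetyltransferase subunit of pyruvate dehydrogenase, had 8.48 in both LNCaP-ERG arrays, against 8.71 and 8.65 in the LNCaP-vector arrays (-0.20, adjusted p = 0.50). Its other 2 probe sets had -0.01 and -0.06 and overlapped. PDK1, a kinase that turns pyruvate dehydrogenase off, had the highest value (0.19, adjusted p = 0.54). PDP1, a phosphatase that turns it on, had the lowest (-0.29, adjusted p = 0.53). In the same list PDK2 (-0.03), PDK3 (-7.2e-04), PDK4 (0.05) and PDPR (0.03) lay near 0, each with overlap. The second PDK1 probe set, below the background level, had 0.33. The second PDP1 probe set, also below that level on all arrays, had -0.19. Both PDK1 probe sets were higher without overlap, both PDP1 probe sets were lower without overlap, and none of the 4 passed. Over all named probe sets, 18.9% were higher in this way and 20.1% lower.

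Of the genes that refill or drain the cycle, 10 of 13 were measured, 2 above 0 and 8 below, with a median of -0.090. PCK2, which makes phosphoenolpyruvate from oxaloacetate in the mitochondrion, had 10.50 and 10.46 in the LNCaP-ERG arrays, against 10.80 and 10.74 in the LNCaP-vector arrays (-0.29, adjusted p = 0.38). ASNS, which makes asparagine from aspartate, had -0.25 (adjusted p = 0.44) at its brightest probe set. ME2, a mitochondrial malic enzyme, had the highest value (0.18, adjusted p = 0.56).

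Lipoate is the cofactor of the 2-oxoglutarate and pyruvate dehydrogenase complexes. LIAS, which makes it on the protein, had 7.13 and 7.23 in the LNCaP-ERG arrays, against 7.50 and 7.55 in the LNCaP-vector arrays (-0.34, adjusted p = 0.37). LIPT1, a lipoyltransferase, had 7.09 and 7.18 in the LNCaP-ERG arrays and 7.42 and 7.39 in the LNCaP-vector arrays (-0.27, adjusted p = 0.42). Each has 1 probe set, and neither passed. In the list of lipoate and succinate dehydrogenase assembly genes, 6 of 7 were measured and none had a value above 0, with a median of -0.089. SDHAF2 and SDHAF3 both had -0.05 with overlap, and SDHAF1 had -0.13 without overlap (adjusted p = 0.67). SDHAF4, whose means were nearly equal in both groups, was below the background level on all arrays.

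**Figure D3:**
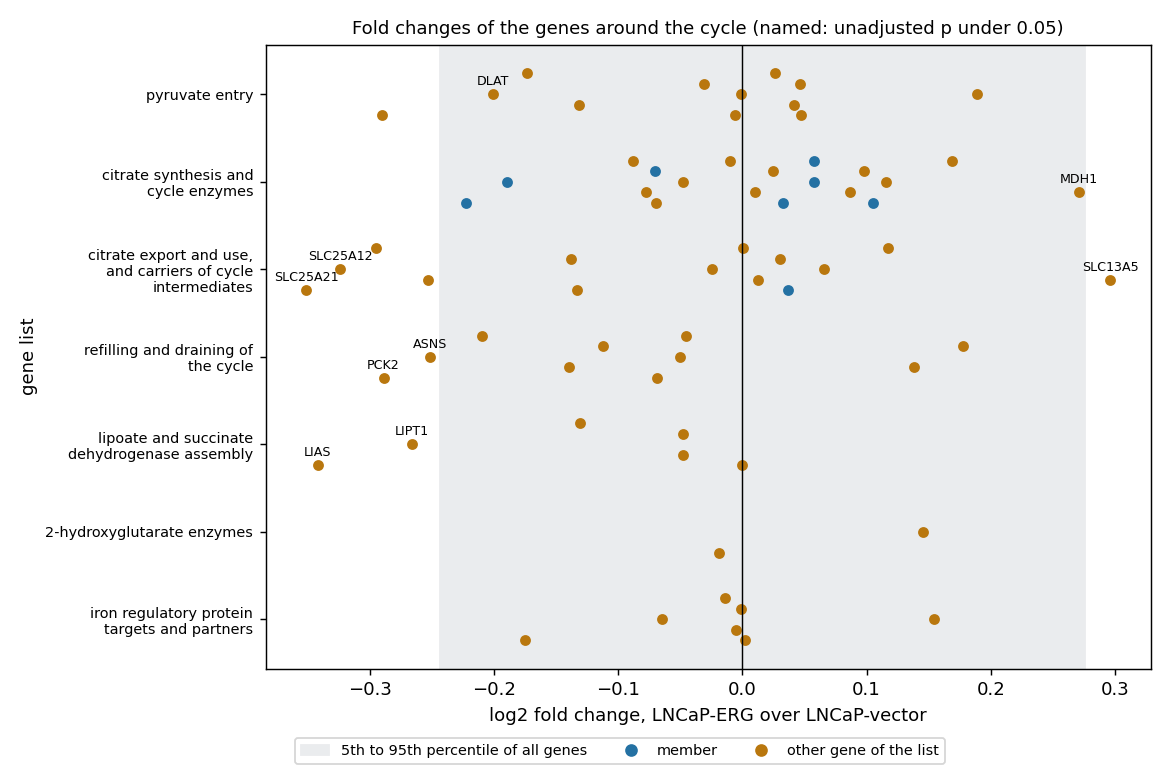
Log2 fold change, LNCaP-ERG over LNCaP-vector (x axis), of the 70 measured genes of the 7 lists (y axis). Blue points are the members, ochre points the other genes, names mark an unadjusted p under 0.05, and the grey band runs from -0.24 to 0.28, the 5th to 95th percentile of all genes; the 8 members lie inside it.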

How the data were processed

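RNA of 2 LNCaP-ERG and 2 LNCaP-vector samples was hybridised to Affymetrix GeneChip arrays. The authors analysed the scans with dChip and normalized them with RMAexpress; their versions, the steps run and a build were not given in the sources used. The deposited values are probe set intensities, linear by their range, with medians of 14.0 to 14.4 per array. Normalization between arrays can hide a shift shared by most genes.

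Intensities were taken to log2, leaving out 2 probe sets with a missing value. Of 51965 probe sets, 39466 name 1 gene. The brightest probe set by its mean over the 4 arrays stood for a gene, and a second fit took all 39464 named and complete probe sets. The test was limma's moderated test (lmFit, eBayes; limma 3.58.1, R 4.3.3, 2 residual and 3.23 prior degrees of freedom) with Benjamini-Hochberg adjustment over all features. The script was tested on simulated data. The number of arrays limits the precision.

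Members and lists were chosen with earlier results of these data known. Genes named beside the members were their partners and paralogs, those at an unadjusted p under 0.05 and the extremes of each list. Of the partners and paralogs, IREB2 was not analysed here. SLC25A10, SLC25A11, SLC25A13, ACSS1, PDK2, PDK3, PDK4, PDPR, SDHAF1, SDHAF2, SDHAF3 and the markers named were picked once their values had been seen. The alternatives dropped each array in turn, blocked on the replicate number, used the methods' t-test, moderated with a trend and robustly, dropped dim features, averaged probe sets or kept only plain ones, repeated quantile normalization, or centred on housekeeping genes.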

Additional observations from a re-analysis of the deposited data

How the results depend on the processing

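None of the 8 genes, of their 17 probe sets and of the 70 pathway genes passed under any alternative in which they were tested. These left 60 of the 70 pathway genes without the dimmer genes and 54 with plain probe sets, where ACO1 and SLC25A1, which have none, dropped out. Over all genes, 89 passed with trended and robust moderation, 54 without the dimmer genes, 52 with housekeeping centring, 14 with the mean of probe sets, 3 with plain probe sets and 3 with quantile normalization again, and 0 with the block, the methods' t-test or an array left out. The direction turned with the mean of probe sets for IDH2 (-0.092), MDH2 (-0.059) and OGDH (0.045), with plain probe sets for IDH2 (-0.29) and MDH2 (-0.15), and without the first LNCaP-ERG array for CS and SLC25A1, whose ranges with single arrays left out were -0.053 to 0.17 and -0.045 to 0.12. The median of the members was 0.024 with housekeeping centring, -0.011 with the mean of probe sets, -0.17 with plain probe sets and -0.049 to 0.043 with single arrays left out. The value with plain probe sets rests on 6 genes. IDH3A enters it through 231137_PM_at (-0.38), which was below the background level, and IDH2 and MDH2 through their dimmer probe sets. IDH1, IDH3A and ACO1 kept their sign in all settings that gave them a value. With the replicate number as a block 0 members were called, in a fit that called 0 of all genes. Deviations of same-numbered arrays correlated at 0.077. With so few arrays per group this value has no reference to be compared with. It therefore cannot decide whether same-numbered arrays shared more than a number. Fits without an array assume that the lone array of a group varies like the other group's.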

Other observations

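Of 9 iron regulatory protein targets and partners, genes tied to the second role of ACO1, 7 were measured and limma called 0, also at an unadjusted p under 0.05. TFRC, the transferrin receptor, had the lowest log2 fold change (-0.17, adjusted p = 0.56) and FTL, the ferritin light chain, the highest (0.15, adjusted p = 0.57). TFRC had log2 intensities of 11.84 and 11.91 in the LNCaP-ERG arrays, against 12.03 and 12.08 in the LNCaP-vector arrays at its brightest probe set. Its second bright probe set had -0.03 with overlap. Those below the background level, 240686_PM_x_at and 237215_PM_s_at, had -0.14 with overlap and -0.27 without. FTL had 12.52 and 12.53 in the LNCaP-ERG arrays and 12.39 and 12.35 in the LNCaP-vector arrays, and its second probe set had 0.23, also without overlap. Of the 3 genes that handle 2-hydroxyglutarate, 2 were measured: D2HGDH, the D-2-hydroxyglutarate dehydrogenase, had 0.15 (adjusted p = 0.63) and ADHFE1 -0.02 (adjusted p = 0.98).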
